A study of Mus musculus with 48 samples.

Results

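The 7 genes described here, S100a8, S100a9, Csf3r, Cxcr2, Retnlg, Mmp9 and Il1b, were chosen by symbol as genes used to recognize neutrophils, and they are 7 of the 34932 mouse genes quantified. The RNA came from 3 populations isolated by flow cytometry, namely CD4+ T cells, CD8+ T cells and the CD45+ leukocytes that lacked both CD4 and CD8 (called CD45+ cells). The cells came from B16F10 tumors, a melanoma line that grows in C57BL/6J mice, giving tumor-infiltrating lymphocytes and other leukocytes (TILs), or from the inguinal tumor-draining lymph nodes (TDLNs) of the same kind of host. Hosts were wild type (WT) or carried a floxed Yap gene with Cre driven by the Cd4 promoter (Yap-cKO, labelled as CD4Cre Yap flox). With these 3 populations, 2 tissues and 2 genotypes there were 12 groups of 4 libraries, 48 in all. The Cd4 promoter is active in developing T cells, so the Yap-cKO model deletes Yap in T cells, and the CD45+ cells of both genotypes come from hosts in which that population was not the target. The line also carried an LSL-EYFP reporter allele, hosts were 6 to 10 weeks old, and controls were littermates. Whether the WT mice carried Cre was not given in the sources used here.

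Neutrophils are short-lived phagocytes that are made in the bone marrow under the growth factor G-CSF and are drawn into inflamed tissue and tumors by CXC chemokines. S100a8 and S100a9 encode the 2 subunits of calprotectin, an abundant calcium- and metal-binding protein of the neutrophil cytosol. Csf3r encodes the G-CSF receptor and Cxcr2 the receptor for neutrophil-attracting chemokines. Retnlg encodes a secreted resistin-like protein of granulocytes, Mmp9 a gelatinase stored in neutrophil granules, and Il1b the cytokine interleukin 1 beta, which monocytes and macrophages also make in quantity.

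S100a8 (ENSMUSG00000056054.9, chr3:90668978-90670035, plus strand) and S100a9 (ENSMUSG00000056071.12, chr3:90692632-90695721, minus strand) lie 22596 bases apart in GRCm38. Csf3r (chr4:126024550-126044440) and Cxcr2 (chr1:74153989-74161246) are on the plus strand, as are Retnlg (chr16:48872621-48874496) and Mmp9 (chr2:164940780-164955850), while Il1b (chr2:129364570-129371139) is on the minus strand. No exon of another quantified gene overlapped a member. RefSeq promoters of GRCm38.p6, from 250 bases before to 50 bases after the annotated start, were found for 6 of the 7 members. They are shown because all 7 genes were higher in tumor than in lymph node, and 4 of the 6 are printed 5′ to 3′ on the gene's strand. Capitals mark matches, on either strand, of the C/EBP letters, which were TTGCNNAA. They also mark the PU.1 letters, which were GAGGAA, or the reverse complement for a match on the other strand. Last, they mark the TATA box letters, which were TATAAA.
S100a8, chr3:90668821-90669120, plus strand: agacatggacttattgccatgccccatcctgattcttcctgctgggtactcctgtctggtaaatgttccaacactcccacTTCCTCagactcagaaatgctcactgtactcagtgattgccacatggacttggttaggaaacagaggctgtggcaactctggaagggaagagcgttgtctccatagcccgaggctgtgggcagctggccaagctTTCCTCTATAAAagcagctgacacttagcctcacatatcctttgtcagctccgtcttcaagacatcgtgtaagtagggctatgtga
S100a9, chr3:90695672-90695971, minus strand: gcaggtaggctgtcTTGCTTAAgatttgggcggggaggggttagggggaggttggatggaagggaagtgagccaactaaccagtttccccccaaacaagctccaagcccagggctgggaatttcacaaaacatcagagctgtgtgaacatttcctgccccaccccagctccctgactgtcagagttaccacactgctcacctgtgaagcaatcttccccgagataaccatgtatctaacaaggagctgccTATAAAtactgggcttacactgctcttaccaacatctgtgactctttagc
Cxcr2, chr1:74153744-74154043, plus strand: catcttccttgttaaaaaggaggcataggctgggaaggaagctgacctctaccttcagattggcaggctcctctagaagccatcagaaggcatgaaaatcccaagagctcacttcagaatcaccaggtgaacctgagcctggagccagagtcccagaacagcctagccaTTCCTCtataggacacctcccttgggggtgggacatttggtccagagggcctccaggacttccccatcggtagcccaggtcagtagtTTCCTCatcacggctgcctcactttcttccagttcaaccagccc
Il1b, chr2:129371090-129371389, minus strand: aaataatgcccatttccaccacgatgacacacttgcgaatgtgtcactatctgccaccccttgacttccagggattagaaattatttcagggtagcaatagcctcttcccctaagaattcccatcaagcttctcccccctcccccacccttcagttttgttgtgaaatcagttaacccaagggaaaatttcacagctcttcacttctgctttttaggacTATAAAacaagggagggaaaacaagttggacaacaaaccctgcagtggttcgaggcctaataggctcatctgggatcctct

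The S100a8 window held PU.1 letters 170 and 36 bases before the start and TATA letters 30 bases before it, the second PU.1 match running directly into the TATA match. The S100a9 window held C/EBP letters 236 bases before the start and TATA letters at the annotated start. Cxcr2 held PU.1 letters 81 bases before the start and again just after it, Csf3r held them 86 bases before, and Retnlg held C/EBP letters 246 bases before. In all, 2 of 6 member promoters held the C/EBP letters, against 10.8% of 32851 RefSeq promoters of this length. PU.1 letters were in 3 of 6 (28.3% of all promoters) and TATA letters in 3 of 6 (13.6% of all), Il1b among them at 31 bases before the start. The NF-kappaB letters, GGG followed by any pair of bases and then TTTCC, were in 0 of 6 and in 1.63% of all promoters. These are matches of letters only.

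Libraries held 12656510 to 24213892 gene counts (median 17870231), so that 3 counts were worth 0.124 to 0.237 CPM, the counts scaled to a common library size. CPM were scaled by TMM over the 48 libraries. None of 72 replicate pairs came near the sampling noise expected of 1 library deposited under 2 names. Nothing in the labels says that the 4 libraries of a group came from separate mice, so p-values measure the spread between these libraries. Yap1 was 14.2 to 25.4 CPM in WT CD4+ TILs and 1.70 to 5.70 CPM in Yap-cKO CD4+ TILs, and it was also lower in Yap-cKO CD8+ TILs (adjusted p = 0.0180). In TDLNs Yap1 log2 fold changes were between -0.14 and 0.23. In CD45+ TILs the fold change of -1.20 did not pass the edgeR test (adjusted p = 0.0773). The libraries there did not overlap, at 2.80 to 5.40 CPM in WT and 1.48 to 2.09 CPM in Yap-cKO, as for 11.6% of genes. The mean sum of 7 melanoma markers was also lower in Yap-cKO, at 9849 against 1026 CPM in CD4+ TILs and 9032 against 1013 CPM in CD8+ TILs. Its part in the Yap1 differences was not tested. The Y-linked Ddx3y and Eif2s3y both exceeded 5 CPM in 18 libraries, replicates 1 to 3 of every WT group, and in 0 of the other 30, so host sex and genotype were partly joined.

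The cell label of the 7 genes was checked against other markers of neutrophils and of the cells that could share the CD45+ gate. Ly6g, the surface protein that defines mouse neutrophils in flow cytometry, was at 1.13, 0.392, 0.345 and 1.31 CPM in WT CD45+ TILs and at 0.123, 0.629, 0.589 and 0.989 CPM in Yap-cKO CD45+ TILs. The highest of them was 21 counts, although S100a8 and S100a9 reached 857 and 864 CPM in these groups. Of the granule genes, Cd177 was at 102.6 ± 26.0 CPM (mean ± SD, n = 4), Mmp8 at 54.4 ± 22.9 and Lcn2 at 22.3 ± 14.2 in WT CD45+ TILs. The 20 genes of the mature neutrophil surface and cytosol summed to 3404 ± 902 CPM there, each above 3 counts. Elane, Mpo and Ctsg, granule enzymes made by immature neutrophils, did not exceed 0.373, 0.552 and 0.311 CPM in CD45+ TILs. Csf1r, the macrophage growth factor receptor, lay between 822 and 1880.2 CPM there. The 12 macrophage and monocyte markers summed to 6368 to 9388 CPM in WT and to 6506 to 8801 CPM in Yap-cKO CD45+ TILs, with none at or under the 3-count level. All 13 granule genes together summed to 848 ± 120.3 CPM (SD, n = 4) in WT CD45+ TILs, of which Chil3, which macrophages also express, gave 607. The 7 genes are therefore described by name and not as a measure of neutrophil number. In these bulk libraries fewer neutrophils and less RNA per neutrophil cannot be told apart.

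All 7 genes had their highest mean CPM in the 2 groups of CD45+ TILs and next in CD45+ TDLNs or in T-cell TILs. On the per-length scale (TPM), which allows comparison between genes, Il1b led in WT CD45+ TILs at 3786 ± 1127 TPM (mean ± SD, n = 4), followed by S100a8 at 1749 ± 1115, S100a9 at 1527 ± 1021, Retnlg at 135 ± 72.0, Csf3r at 72.8 ± 42.4, Mmp9 at 37.4 ± 26.6 and Cxcr2 at 12.8 ± 9.25. The order was the same in Yap-cKO CD45+ TILs, from 3870 ± 916 for Il1b to 10.5 ± 6.96 for Cxcr2. The means of S100a8 and S100a9 differed by less than their SD in both genotypes. With the 12 groups ordered by mean CPM, 10 of 11 neighbouring pairs of groups overlapped for S100a8, S100a9, Csf3r and Retnlg, the exception being the step from the CD45+ TILs to the WT CD45+ TDLNs. For Cxcr2 and Mmp9 all 11 pairs overlapped. For Il1b 9 of 11 did, the second gap being between the T-cell TILs and the T-cell TDLNs.

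**Figure D1:**
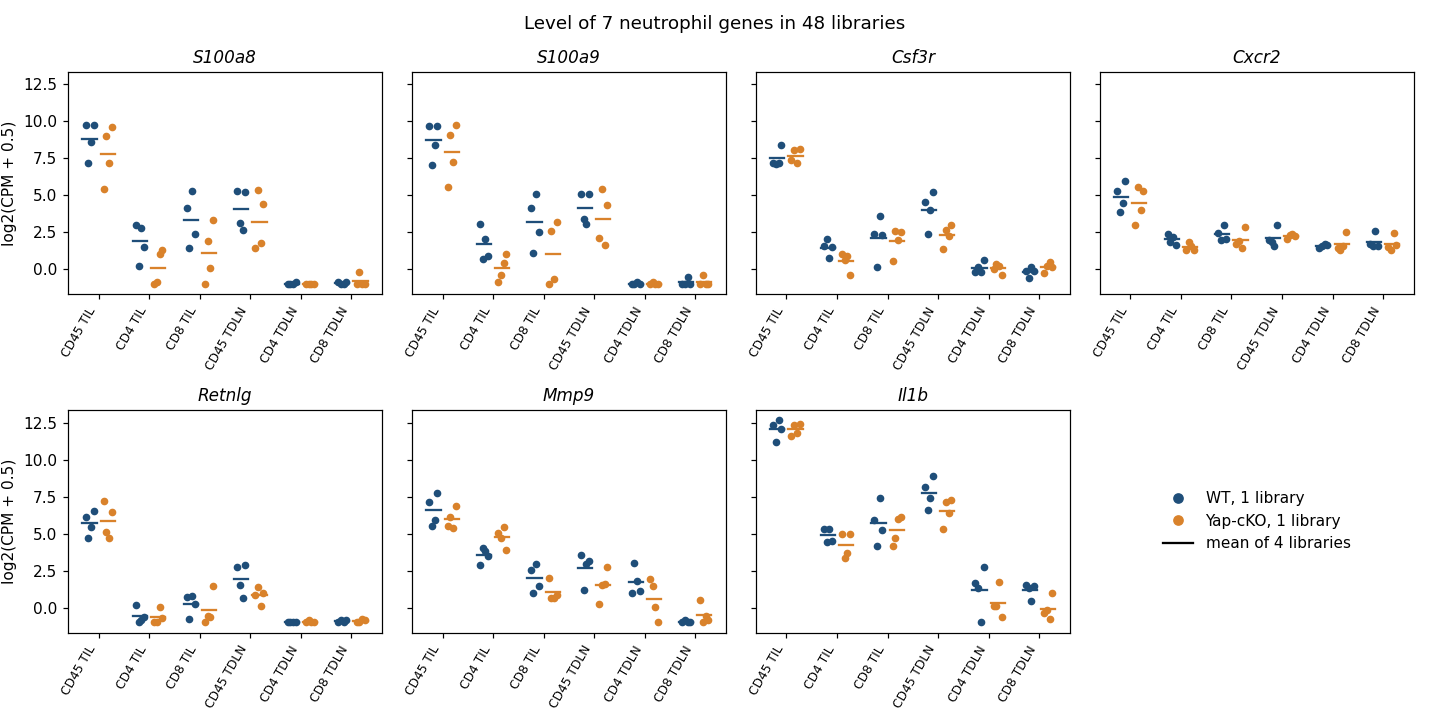
Level of each of the 7 genes in each of the 48 libraries, as log2(CPM + 0.5) on the vertical axis, with the 6 sorted populations on the horizontal axis and the genotypes in 2 colours, 4 points a group, each point 1 library and each dash the mean of a group. The group means are highest in the CD45+ TILs of both genotypes for all 7 genes, and for Mmp9 alone the next highest group is Yap-cKO CD4+ TILs.

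The calprotectin genes varied most of the 7 among the CD45+ TIL libraries. S100a8 was at 857, 147, 384 and 849 CPM in the 4 libraries of WT CD45+ TILs and at 43.5, 512, 147 and 771 CPM in Yap-cKO CD45+ TILs. In CD45+ TDLNs it was at 37.9, 8.09, 5.82 and 36.2 CPM in WT and at 2.23, 39.9, 2.88 and 20.5 CPM in Yap-cKO. Within each genotype every tumor library exceeded every lymph node library, while the genotypes overlapped in both tissues. S100a9 followed at 809, 135, 337 and 832 CPM in WT and at 45.9, 529, 156 and 864 CPM in Yap-cKO CD45+ TILs, and at 34.3, 9.87, 7.82 and 33.5 CPM in WT and at 3.76, 43.6, 2.64 and 20.1 CPM in Yap-cKO CD45+ TDLNs. The same libraries were high and low for both subunits. In tumors the ratio of S100a9 to S100a8 counts stayed between 0.878 and 1.12 over the 8 CD45+ libraries, although each gene alone ranged over more than an order of magnitude. The ratio lay between 0.905 and 1.69 in the 8 CD45+ TDLN libraries and between 0.569 and 1.67 in the 10 T-cell TIL libraries with at least 20 counts of both genes.

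The receptor genes were less variable in tumors than the calprotectin genes. Csf3r was at 147, 140.2, 149 and 344 CPM in WT CD45+ TILs and at 168, 269, 145 and 277 CPM in Yap-cKO CD45+ TILs. It was at 22.5, 4.66, 15.7 and 37.3 CPM in WT CD45+ TDLNs but at 2.13, 5.76, 4.38 and 7.38 CPM in Yap-cKO CD45+ TDLNs. The tissues did not overlap, and in TDLNs 3 of 4 WT libraries lay above all Yap-cKO libraries. Cxcr2 was at 38.1, 14.4, 21.6 and 62.6 CPM in WT and at 7.44, 46.2, 15.9 and 38.1 CPM in Yap-cKO CD45+ TILs, and in CD45+ TDLNs it was between 2.48 and 7.33 CPM in WT and between 3.61 and 4.86 CPM in Yap-cKO. Within each genotype the tissues did not overlap, but the highest WT TDLN library nearly reached the lowest Yap-cKO TIL library.

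The counts of both receptor genes were divided between transcripts differently in tumors and in lymph node T cells. The files give each transcript, and the counts of Cxcr2 were divided between Cxcr2-201 (2220 bases) and Cxcr2-202 (3046 bases). Cxcr2-201 summed to 1.2 counts over the 32 T-cell libraries and to 1.6 counts over the 8 CD45+ TDLN libraries. In CD45+ TILs it had 148, 29.0, 25.5 and 385 counts in WT and 0, 202, 78.2 and 193 counts in Yap-cKO, and 7 of the 8 libraries held it. Cxcr2-202 held 31.3 to 135 counts in every T-cell library, 52.3 to 109.8 in CD45+ TDLNs and 121 to 622 in CD45+ TILs. The low Cxcr2 level of T cells and lymph nodes was therefore assigned almost entirely to the longer transcript. For Csf3r, Csf3r-202 had 0 counts in all 16 T-cell libraries of TDLNs, in which Csf3r-201 held 3.09 to 18.9 counts. In CD45+ TILs Csf3r-202 held 670 to 1967 counts in WT and 1006 to 1509 in Yap-cKO, beside 1365 to 3359 and 1472 to 2893 for Csf3r-201. The division between transcripts is Salmon's estimate from shared exons and was not tested.

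**Figure D2:**
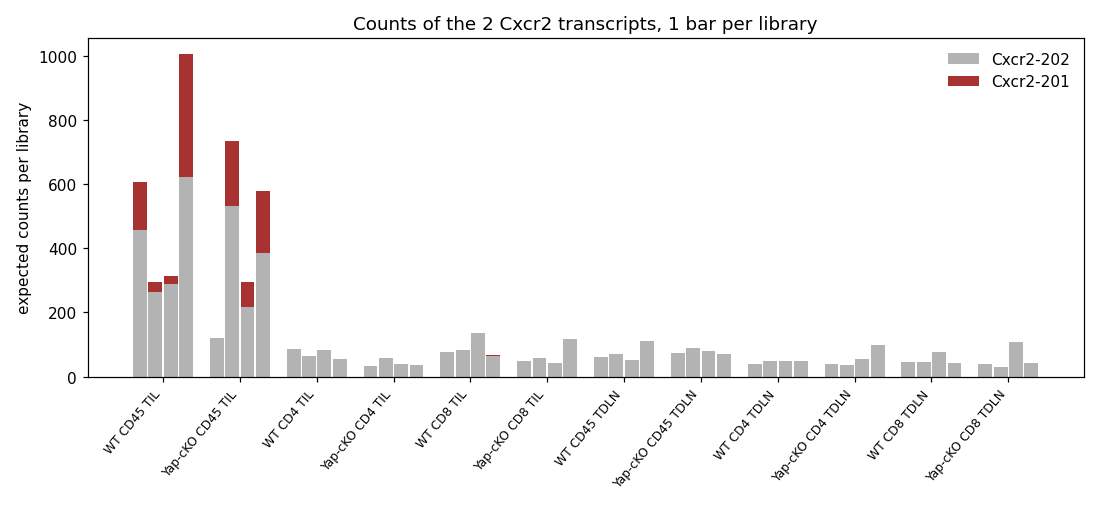
Expected counts of Cxcr2 assigned to each of its 2 transcripts, stacked, on the vertical axis, for each library on the horizontal axis in order of group. Cxcr2-201 appears in 7 of the 8 CD45+ TIL libraries, at up to 385 counts, and sums to 1.2 counts over the 32 T-cell libraries.

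The secreted products differed widely from each other in level. Retnlg was at 69.2, 25.5, 42.5 and 90.8 CPM in WT CD45+ TILs and at 146, 34.6, 25.5 and 85.8 CPM in Yap-cKO CD45+ TILs. In CD45+ TDLNs it was at 6.27, 2.33, 1.05 and 7.004 CPM in WT and at 1.29, 2.07, 0.6005 and 1.53 CPM in Yap-cKO. Replicate 1 of the Yap-cKO CD45+ TILs had the highest Retnlg of the 8 tumor libraries although it had the lowest S100a8, S100a9 and Cxcr2. Mmp9 was at 139, 45.8, 61.3 and 210.1 CPM in WT and at 45.7, 69.6, 40.4 and 116 CPM in Yap-cKO CD45+ TILs, and at 11.4, 1.74, 7.30 and 8.39 CPM in WT and at 0.693, 2.43, 2.52 and 6.29 CPM in Yap-cKO CD45+ TDLNs. Il1b was the most abundant member, at 5108, 2348, 6471 and 4229 CPM in WT and at 3146, 5291, 3515 and 5400.2 CPM in Yap-cKO CD45+ TILs. In CD45+ TDLNs Il1b was at 278, 98.1, 169 and 477 CPM in WT and at 39.1, 142, 83.5 and 155 CPM in Yap-cKO. For all 3 genes the tumor libraries lay above the lymph node libraries of their genotype, and the genotypes overlapped.

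The first comparison asked how the 7 genes differed between tumor and lymph node within CD45+ cells. All 7 were called higher in TILs in both genotypes (edgeR quasi-likelihood test, Benjamini-Hochberg adjusted p under 0.05 and log2 fold change above 1), where 21.9% of genes in WT and 21.8% in Yap-cKO were called higher. The TIL and TDLN libraries did not overlap for 7 of 7 members in either genotype, with TILs higher for 26.2% of all genes in WT and 28.2% in Yap-cKO. The median log2 fold change of the members was 3.95 in WT and 4.45 in Yap-cKO, beside -0.08 and -0.09 over all genes tested. In WT the calprotectin genes had the largest values of the 7, S100a8 by 4.62 ± 0.78 (log2 fold change ± SE, adjusted p = 0.00081) and S100a9 by 4.58 ± 0.72 (adjusted p = 0.000525). Csf3r was higher by 3.24 ± 0.57 and Cxcr2 by 3.02 ± 0.51, the smallest of the 7. Retnlg, Mmp9 and Il1b were higher by 3.74 ± 0.62, 3.95 ± 0.63 and 4.11 ± 0.54. In Yap-cKO the largest values were those of Retnlg, 5.65 ± 0.63, Csf3r, 5.38 ± 0.40 (adjusted p = 1.25e-06), and Il1b, 5.30 ± 0.45, and the smallest was again Cxcr2, 2.55 ± 0.49. S100a8, S100a9 and Mmp9 were higher by 4.41 ± 1.06, 4.42 ± 1.05 and 4.45 ± 0.58 in Yap-cKO.

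Markers of other cells moved with this comparison. Of 12 macrophage and monocyte markers, 11 were called higher in WT and 12 in Yap-cKO CD45+ TILs, their sum being 108 to 932 CPM in WT and 124 to 170.2 CPM in Yap-cKO CD45+ TDLNs. All 8 B-cell markers were called lower in TILs in both genotypes, with sums of 13241 to 16017 CPM in WT TDLNs and 1798 to 3445 CPM in WT TILs. The part of this shift in cell makeup in the members' differences was not tested.

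**Figure D3:**
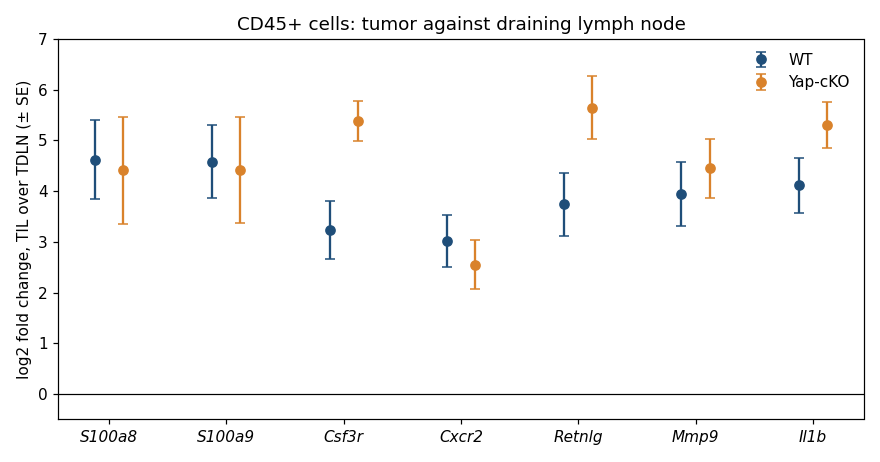
Log2 fold change of TILs over TDLNs in CD45+ cells for each of the 7 genes (error bars, SE of the edgeR fit), WT and Yap-cKO side by side, 4 libraries a group. All values lie above 0, from 2.55 for Cxcr2 in Yap-cKO to 5.65 for Retnlg in Yap-cKO.

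Most tested genes of the mature neutrophil list were also higher in TILs in CD45+ cells. Of 20 genes of the mature neutrophil surface and cytosol, 18 were called higher in TILs among 19 tested in WT (median log2 fold change 3.95), and 18 were called higher among 20 tested in Yap-cKO. The largest called changes in WT were those of Stfa2l1, at 0.932 to 17.1 CPM in TILs and at most 0.0661 CPM in TDLNs, Mrgpra2b, at 1.32 to 18.5 CPM in TILs and at most 0.174 CPM in TDLNs, G0s2, an inhibitor of lipolysis (6.82 ± 0.70), and Hcar2, a receptor for hydroxy-carboxylic acids (5.77 ± 0.70). In WT, Stfa2l1 and Mrgpra2b reached the count filter through the TILs alone. Of 13 granule genes, 4 of 9 tested were called higher in WT and 6 of 10 in Yap-cKO (median 2.34 and 3.71). In WT these were Chil3 (4.42 ± 0.58), the collagenase Mmp8 (4.13 ± 0.60), the siderophore-binding Lcn2 (2.79 ± 0.75) and the surface protein Cd177 (2.76 ± 0.67). These lists were measured in the same libraries as the members.

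Several ligand genes of the member receptors were also higher in tumors. Csf3, which encodes the ligand of Csf3r, was at 7.73, 1.32, 12.5 and 1.99 CPM in WT CD45+ TILs and at most 1.39 CPM in WT CD45+ TDLNs, a log2 fold change of 3.67 ± 0.96 (adjusted p = 0.00895). Cxcl1 and Cxcl2, chemokines that bind CXCR2, were higher by 4.03 ± 1.13 and 4.17 ± 0.96. Cxcl3 and Ppbp, which also bind it, differed by 2.74 ± 1.64 and 3.09 ± 1.68 in WT and were not called there, replicate 4 of the WT TDLNs holding 98.8 and 28.2 CPM of them. Cxcl5, another such chemokine, did not exceed 1.17 CPM in any CD45+ library and was not tested. In all, 4 of 6 ligand genes tested were called higher in WT, with Csf2 (4.22 ± 0.49), whose receptor is not among the 7 genes, the other, and 6 of 6 in Yap-cKO. Csf2 was at 3.38 to 9.52 CPM in WT CD45+ TILs and at most 0.429 CPM in WT CD45+ TDLNs. It therefore reached the count filter in WT through the TILs alone. Of 11 genes of interleukin 1 processing and signalling, 10 were called higher in WT and 9 in Yap-cKO. The largest in WT were Il1a (6.44 ± 0.94), the receptor antagonist Il1rn (5.33 ± 0.74), the inflammasome sensor Nlrp3 (3.61 ± 0.64) and the decoy receptor Il1r2 (3.52 ± 0.74). Of 7 calprotectin receptor genes and MMP9 inhibitors, 5 of 6 tested were called higher in WT and 6 of 7 in Yap-cKO. Ager, which encodes the calprotectin receptor RAGE, was called lower in Yap-cKO TILs (-2.41 ± 0.52), at 0.0629 to 0.375 CPM in TILs and at 0.732 to 1.14 CPM in TDLNs. Ager therefore reached the count filter through the TDLNs alone. Tlr4, another receptor for calprotectin, was higher by 2.91 ± 0.39 in WT, its partner Ly96 by 1.80 ± 0.31, and the inhibitors Timp2 and Timp3 by 3.27 ± 0.28 and 4.02 ± 0.53. The MMP9 inhibitor Timp1 was at 20.8 to 49.6 CPM in WT CD45+ TILs, and it was at or under 0.286 CPM in 3 of 4 WT CD45+ TDLN libraries and at 21.01 CPM in replicate 4. Of 8 granulocyte transcription factors and receptors, 7 were called higher and Gfi1, a repressor needed for neutrophil development, lower in both genotypes. Cebpa (4.15 ± 1.00), Cebpe (3.68 ± 1.13), Csf2ra (3.05 ± 0.56) and Csf2rb (2.66 ± 0.58) led in WT.

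The second comparison set CD45+ cells against the mean of CD4+ and CD8+ T cells. In TILs all 7 members were called higher in CD45+ cells in both genotypes, where 15.7% of genes in WT and 17% in Yap-cKO were called higher. The WT log2 fold changes were 6.08 ± 0.76 for S100a8, 6.19 ± 0.76 for S100a9, 5.72 ± 0.54 for Csf3r and 3.00 ± 0.35 for Cxcr2. They were 7.12 ± 0.64 for Retnlg, 4.02 ± 0.45 for Mmp9 and 6.58 ± 0.51 for Il1b. In Yap-cKO they ranged from 3.17 ± 0.43 for Cxcr2 to 7.99 ± 1.10 for S100a9. Cxcr2 and Mmp9 thus had the smallest differences in both genotypes. In TDLNs 6 of 7 were called higher in WT (14% of genes) and 5 of 7 in Yap-cKO (12.2% of genes). Cxcr2 was not called in either, with log2 fold changes of 0.50 ± 0.34 and 0.49 ± 0.33, and Mmp9 was not called in Yap-cKO (2.10 ± 0.87, adjusted p = 0.0840). The calprotectin genes were close to 0 in TDLN T cells. S100a8 had 1500 counts in the 4 WT CD45+ libraries and 3 counts in the 8 WT T-cell libraries, a scaled ratio of 886 (95% counting interval 302 to 4299). The count for WT TDLNs was 3 of 4 tested without any 1 of the 4 CD45+ libraries, and for Yap-cKO TDLNs it was 2 of 4 likewise, because S100a8, S100a9 and Retnlg then no longer reached 10 counts in 4 libraries.

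The third comparison concerned the T cells themselves. S100a8 was at 7.44, 0.701, 6.52 and 2.39 CPM in WT CD4+ TILs and at 17.4, 2.19, 38.0 and 4.67 CPM in WT CD8+ TILs. In Yap-cKO it was at 0, 0.0541, 1.59 and 1.96 CPM in CD4+ TILs and at 0, 3.26, 0.557 and 9.70 CPM in CD8+ TILs. No T-cell library from a TDLN held more than 6 counts of S100a8. The libraries were spread over an order of magnitude or more in each T-cell TIL group, and replicates 1 and 3 were the higher ones in both WT populations. Il1b was at 38.7, 21.6, 39.4 and 22.1 CPM in WT CD4+ TILs and at 60.9, 17.1, 167 and 38.3 CPM in WT CD8+ TILs. Csf3r did not exceed 11.9 CPM and Retnlg 2.28 CPM in any of the 32 T-cell libraries, while Cxcr2 was between 1.94 and 7.48 CPM in all of them. Cxcr2 and Csf3r were thus detected in every T-cell group at a low level. S100a8 reached 0.763% of the CD45+ TIL mean in WT CD4+ TILs and 2.78% in WT CD8+ TILs. Il1b reached 0.671% and 1.56% of it, Cxcr2 10.6% and 14.3%, and Mmp9 10.2% and 3.62%.

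Several members were higher in T cells from tumors than in those from lymph nodes. In WT, 5 of 6 tested members were called higher in CD4+ TILs (22.9% of genes called higher) and 5 of 6 in CD8+ TILs (22.5%), Cxcr2 being the exception in both (0.60 ± 0.35 and 0.66 ± 0.45). The S100a8 counts were 332 against 1 in CD4+ cells, a ratio of 370.3 (95% counting interval 66.0 to 14670.1), and 1095 against 2 in CD8+ cells, a ratio of 632 (175 to 5227). Il1b was higher by 3.52 ± 0.80 in CD4+ and 5.31 ± 0.69 in CD8+ TILs, and Csf3r by 2.04 ± 0.51 and 3.77 ± 0.80. Mmp9 was higher by 1.85 ± 0.51 in CD4+ TILs. In Yap-cKO, 2 of 4 tested members were called higher in CD4+ TILs (12.4% of genes), Mmp9 by 4.17 ± 0.91 and Il1b by 4.28 ± 0.78. In Yap-cKO CD8+ TILs 2 of 4 were called (10.9% of genes), Il1b by 6.31 ± 0.76 and Csf3r by 2.57 ± 0.61. Cxcr2 was not called in either, at -0.41 ± 0.44 in CD4+ and 0.31 ± 0.50 in CD8+ cells. S100a8 was too low to be tested in Yap-cKO CD4+ cells, with 64 counts in TILs and 0 in TDLNs, at least 23.7-fold higher against 3 counts over the TDLN group. Without any 1 of the 4 TIL libraries the WT counts were 3 of 4 tested in CD4+ and 1 of 2 tested in CD8+ cells, since the other members then missed the filter of 10 counts in 4 libraries.

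Markers of other cells were present in these sorted T-cell libraries. The 12 macrophage and monocyte markers summed to 274 to 433 CPM in WT and 433 to 709 CPM in Yap-cKO CD4+ TILs, and to 394 to 971 CPM in WT and 1609 to 1855 CPM in Yap-cKO CD8+ TILs. None of the 12 was at or under 3 counts in these groups. The 7 melanoma markers summed to 5080.3 to 15451 CPM in WT and 168 to 2246 CPM in Yap-cKO CD4+ TILs, and to 3571 to 12585 CPM in WT and 39.7 to 2408 CPM in Yap-cKO CD8+ TILs. The 6 erythroid markers, most of them globins, summed to 213 to 1790 CPM in WT and 33.6 to 180.1 CPM in Yap-cKO CD4+ TILs. In CD8+ TILs they summed to 239 to 1585 CPM in WT and 7.78 to 192 CPM in Yap-cKO. The part of other cells in the T-cell values of the members was not tested.

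The fourth comparison asked whether loss of Yap in T cells went with a difference in the 7 genes. None of them was called in any of the 6 populations by edgeR, of 6 tested in CD4+ TILs, 7 in CD8+ TILs, 7 in CD45+ TILs, 4 in CD4+ TDLNs, 2 in CD8+ TDLNs and 7 in CD45+ TDLNs. Of all genes, 8.02% were called in CD4+ TILs, 12.2% in CD8+ TILs, 0.991% in CD45+ TILs, 0.0462% in CD4+ TDLNs, 0.0158% in CD8+ TDLNs and 0.0596% in CD45+ TDLNs. At an unadjusted p under 0.05 there were 2, 0, 0, 0, 1 and 3 members in the same order, beside 24.5%, 33.9%, 17.8%, 1.75%, 0.949% and 2.91% of all genes. By DESeq2 there were 2 called in CD4+ TILs and 0 in the other 5 populations. DESeq2 called 15% of all genes in CD4+ TILs, 18.2% in CD8+ TILs, 3.87% in CD45+ TILs and 0.119% to 0.162% in TDLNs. The 4 WT and 4 Yap-cKO libraries overlapped for every member in all 6 populations, while 17.1% of genes did not overlap in CD4+ TILs, 21.8% in CD8+ TILs, 11.6% in CD45+ TILs, 1.16% in CD4+ TDLNs, 0.941% in CD8+ TDLNs and 1.44% in CD45+ TDLNs. An exact permutation test of 4 against 4 libraries cannot give a p below 0.0286.

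In CD45+ TILs the values were small beside the spread. The log2 fold changes of Yap-cKO over WT were -0.63 ± 0.77 for S100a8, -0.43 ± 0.79 for S100a9, 0.13 ± 0.33 for Csf3r and -0.36 ± 0.57 for Cxcr2. They were 0.34 ± 0.54 for Retnlg, -0.77 ± 0.48 for Mmp9 and -0.09 ± 0.31 for Il1b, with adjusted p from 0.423 to 0.898 (edgeR quasi-likelihood, Benjamini-Hochberg). The exact two-sided permutation p was between 0.314 (Mmp9) and 1 (Il1b). For both calprotectin genes a log2 change of -1 lay within 2 SE of the estimate. The direction of Csf3r, Cxcr2, Retnlg and Il1b turned with the library left out. With a term for Y-linked expression, Csf3r became -0.60, Retnlg -0.33 and Il1b 0.07. Among the 6 lists of related genes 1 gene was called, Timp3, an inhibitor of metalloproteinases, at 3.59 to 8.43 CPM in WT and at 0.881 to 2.14 CPM in Yap-cKO (log2 fold change -1.88 ± 0.38, adjusted p = 0.0481). The melanoma marker sum was 1061 to 1735 CPM in WT and 119 to 497 CPM in Yap-cKO CD45+ TILs, and its part in the Timp3 difference was not tested. The erythroid marker sum was 226 to 1436 CPM in WT and 47.2 to 308 CPM in Yap-cKO there. The B-cell marker sum was 1798 to 3445 CPM in WT and 879 to 1794 CPM in Yap-cKO. The macrophage and monocyte sums, given above, overlapped. The part of these sums in the members' values was not tested.

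**Figure D4:**
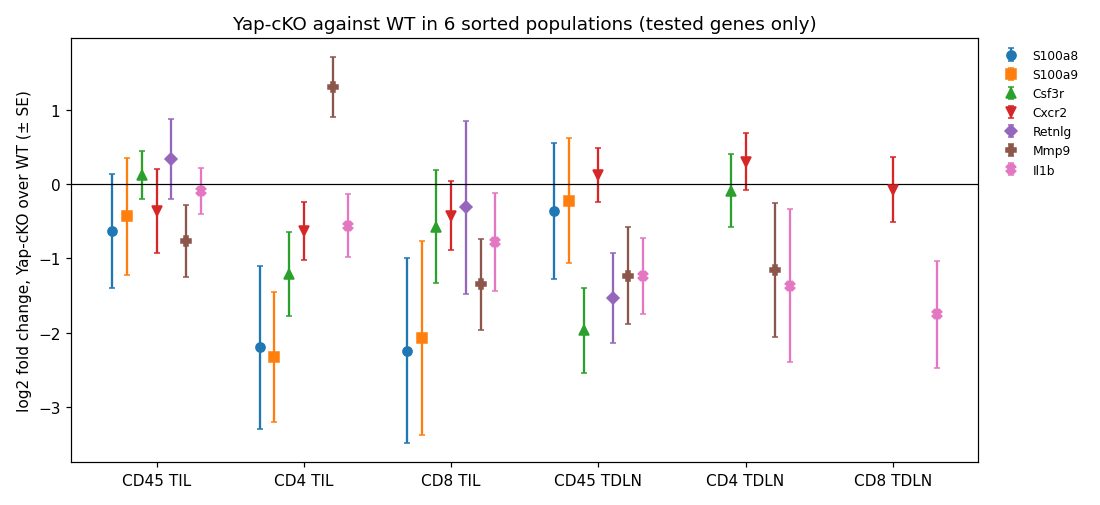
Log2 fold change of Yap-cKO over WT for each member that could be tested in each of the 6 populations (error bars, SE of the edgeR fit), 4 libraries a genotype. None passed the test, and Mmp9 in CD4+ TILs is the value furthest above 0, at 1.31.

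In T-cell TILs the calprotectin genes had lower means in Yap-cKO, and no difference passed the edgeR threshold. S100a8 differed by -2.20 ± 1.10 in CD4+ TILs (adjusted p = 0.245) and by -2.24 ± 1.25 in CD8+ TILs (adjusted p = 0.226). S100a9 differed by -2.33 ± 0.88 in CD4+ TILs (adjusted p = 0.133 by edgeR and 0.0284 by DESeq2) and by -2.07 ± 1.31 in CD8+ TILs. Csf3r, Cxcr2 and Il1b in CD4+ TILs had values of -1.21 ± 0.57, -0.63 ± 0.39 and -0.56 ± 0.43. The 2 WT libraries with most S100a8, replicates 1 and 3, held most of its WT sum in both T-cell populations. As an alternative, scaling the libraries on 12 genes expressed by all leukocytes lowered the median of all genes to -1.07 in CD4+ and -1.19 in CD8+ TILs and called 5 and 4 members lower, among 3938 and 6980 genes called.

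Mmp9 went the other way in CD4+ TILs. It was at 6.74, 15.8, 13.4 and 10.7 CPM in WT CD4+ TILs and at 32.3, 26.0, 43.4 and 14.5 CPM in Yap-cKO CD4+ TILs. Of the 4 Yap-cKO libraries 3 lay above all WT libraries, and replicate 4 lay within the WT range. The log2 fold change was 1.31 ± 0.41, with p = 0.00789 and adjusted p = 0.0751 by edgeR, adjusted p = 0.0205 by DESeq2 and an exact two-sided permutation p of 0.0571. Under scaling on the 12 leukocyte genes it was 0.24. The 8 T-cell markers summed to 759 to 3069 CPM in WT and to 3785 to 5167 CPM in Yap-cKO CD4+ TILs, without overlap, and their part in the Mmp9 value was not tested. In CD8+ TILs Mmp9 was at 5.38, 1.53, 7.32 and 2.31 CPM in WT and at 3.44, 1.09, 1.06 and 1.34 CPM in Yap-cKO, a value of -1.35 ± 0.61 (adjusted p = 0.149). In CD4+ TDLNs it was at 1.5001, 7.68, 2.94 and 1.65 CPM in WT and at 3.37, 2.27, 0.519 and 0 CPM in Yap-cKO. In the same CD4+ TILs, the interleukin 1 decoy receptor Il1r2 was called higher in Yap-cKO (1.87 ± 0.36, adjusted p = 0.0138), as were the granule genes Ltf (2.17 ± 0.56) and Pglyrp1 (1.83 ± 0.50), with 2 of 4 granule genes tested called. Cxcl1 (-3.90 ± 0.75) and G0s2 (-2.73 ± 0.71) were called lower there. Of all genes, 8.02% were called in CD4+ TILs, and 0.0141% with a term for Y-linked expression. The genotype term of the latter fit rests largely on 1 WT library. The part of host sex and of the T-cell marker sum in these calls was not tested.

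In CD45+ TDLNs 6 of 7 members had lower means in Yap-cKO, and none was called. Csf3r, whose values in the 8 libraries are given above, differed by -1.97 ± 0.57, with p = 0.00629, adjusted p = 0.998 and an exact two-sided permutation p of 0.0857. Retnlg differed by -1.53 ± 0.61, Mmp9 by -1.23 ± 0.65 and Il1b by -1.23 ± 0.51. The macrophage and monocyte marker sum ranged from 108 to 932 CPM among WT libraries and from 124 to 170.2 CPM among those of Yap-cKO, and its part in these values was not tested. With a term for Y-linked expression in the edgeR fit Csf3r differed by -3.26 (adjusted p = 0.0257), and 1.4% of all genes were called. Among the WT libraries only replicate 4, the highest for Csf3r at 37.3 CPM, did not pass 5 CPM of both Y-linked genes. The genotype term of that fit therefore rests largely on 1 WT library. In CD8+ TDLNs Il1b was at 2.42, 1.97, 0.859 and 2.26 CPM in WT and at 0.291, 0.389, 0.0937 and 1.49 CPM in Yap-cKO, a value of -1.76 ± 0.72 (p = 0.0359, adjusted p = 0.999, exact two-sided permutation p = 0.0571).

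Whether the genotype difference itself differed between tumor and lymph node was tested as an interaction over 16 libraries of a population. It was called for 0 of 6 members in CD4+, 0 of 7 in CD8+ and 0 of 7 in CD45+ cells by edgeR, where 1.36%, 0.422% and 0% of genes were called, and 1, 1 and 2 members had an unadjusted p under 0.05, beside 14.8%, 15.6% and 8.38% of all genes. DESeq2 called 0, 1 and 0, beside 5.58%, 4.81% and 0.8% of all genes. In CD45+ cells Csf3r had an interaction of 2.08 ± 0.69 (adjusted p = 0.358), Retnlg of 1.86 ± 0.87 (adjusted p = 0.589) and Il1b of 1.14 ± 0.65 (adjusted p = 0.684), each in the direction of a more positive Yap-cKO difference in tumor. Mmp9 had an interaction of 2.46 ± 1.05 in CD4+ cells (adjusted p = 0.279) and of -5.19 ± 1.498 in CD8+ cells (adjusted p = 0.113). The latter rests on CD8+ TDLN libraries with 1 count of Mmp9 in WT and 21 in Yap-cKO, so its size depends on the prior count.

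The 8 CD45+ TIL libraries were then compared with each other, whatever their genotype. S100a8 and S100a9 varied together with Pearson r = 0.997 and Spearman rho = 0.905 over the 8 libraries. S100a8 and Cxcr2 had r = 0.952 and rho = 0.833, and S100a8 and Mmp9 had r = 0.83 and rho = 0.905. S100a8 and Csf3r had a lower r of 0.537, S100a8 and Il1b had 0.699, and S100a8 and Retnlg had 0.018. The value for Retnlg rested on replicate 1 of Yap-cKO, which was highest for Retnlg and lowest for S100a8: without it r was 0.915 over the other 7 libraries, and without any other library it was between -0.141 and 0.073. Without that replicate S100a8 had r = 0.911 with Cxcr2 and 0.912 with Mmp9. Csf1r and S100a8 had r = -0.422, and r = -0.156 without replicate 1 of Yap-cKO. Over the 8 libraries Csf1r had r = -0.397 with S100a9, -0.232 with Cxcr2, -0.271 with Mmp9 and -0.208 with Il1b. Its r was 0.445 with Csf3r and 0.187 with Retnlg. These values are descriptions over libraries that differ in depth and genotype.

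**Figure D5:**
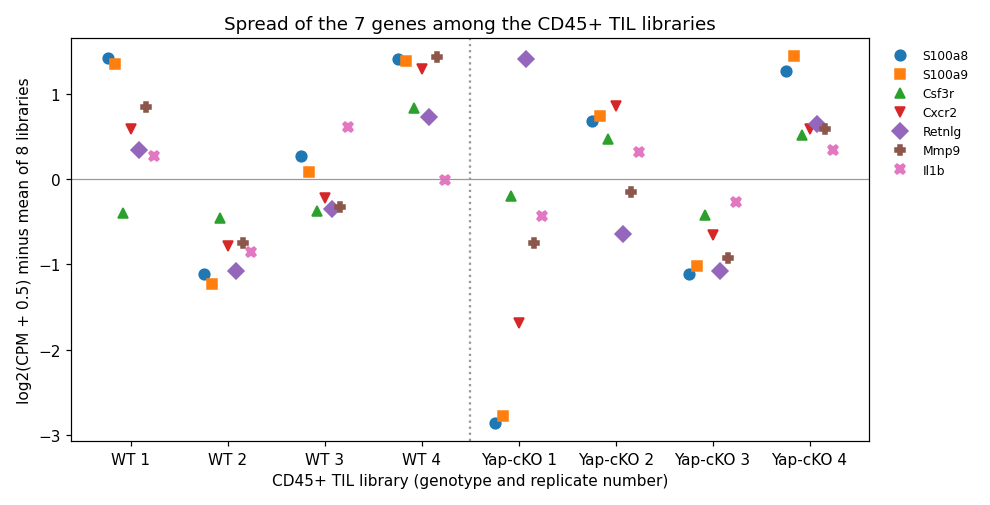
Deviation of log2(CPM + 0.5) from the mean of the 8 CD45+ TIL libraries on the vertical axis, for each library on the horizontal axis (4 WT, 4 Yap-cKO), with 1 symbol a gene. S100a8, S100a9 and Cxcr2 are lowest in Yap-cKO replicate 1, which is highest for Retnlg.

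Of 16869 genes that reached 10 counts in 4 or more libraries, those most like each member were found by Pearson's r of log2(CPM + 0.5) over the 48 libraries. S100a8 was most like S100a9 (r = 0.996), Chil3 (0.957) and Clec4e (0.948), and S100a9 named the same genes. Csf3r was most like Sirpb1c (0.98), Mefv and Ptpro (0.976). Cxcr2 was most like Gm5483 (0.952), Il1f9 (0.95) and Spatc1 (0.933), and Retnlg like Chil1 (0.97), Sirpb1a (0.966) and Gm9733 (0.965). Mmp9 was most like Il1r2, at a lower r of 0.911, followed by Chmp2a and Tmem176a. Il1b was most like Emilin2 (0.969), Tyrobp (0.968) and Csf1r (0.966), the last 2 of which macrophages also express. Over the 8 CD45+ TIL libraries alone, S100a8 was most like S100a9 (0.997), Lcn2 (0.985) and Gngt2 (0.973), and S100a9 had Lcn2 (0.992) and Gm5483 (0.977) next to S100a8. Csf3r was most like 4930519G04Rik (0.974), Grina (0.96) and Slc31a1, and Mmp9 like Raet1e (0.967), Gm49309 and Gm6863. Retnlg was most like Trav14-1 (0.974), Ypel4 and Ccl8 (0.93), and Il1b like Gm9973 (0.967), Cfap97d2 and Cd300c2 (0.959). These are the highest r among 16766 genes over only 8 libraries, and how high r would reach by chance was not tested.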

How the data were processed

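RNA from 48 sorted-cell libraries (4 in each of 12 groups, taken from the labels) was prepared by the authors with SMART-Seq v4 and quantified with Salmon 0.9.1 on mm10, which is GRCm38. Per the file headers the deposited values are, for each transcript, an expected count of reads, a TPM and an effective length, without normalization between libraries. Of 112092 transcripts, 111787 matched GENCODE M21 by identifier, leaving 0.0488% to 0.18% of counts unmatched. Expected counts were summed to 34932 genes and rounded, and the deposited TPM were summed per gene for comparing levels between genes. Coordinates count from 1, and 0 columns of other samples were left out.

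Genes that reached 10 counts in 4 or more libraries of a fit were tested with edgeR 4.0.16 (R 4.3.3), with TMM factors, the quasi-likelihood F test and Benjamini-Hochberg adjustment over all tested genes. The threshold for a call was an adjusted p of 0.05 together with a log2 fold change beyond 1 in either direction. SE were computed from the fold change and the F statistic. Levels are CPM after TMM, log2 values have a pseudocount of 0.5, exact tests used scipy 1.17.1, and ratios of summed counts have 95% intervals that cover counting error only. Alternatives were DESeq2 1.42.0, other scalings and filters, a replicate block, a Y-linked covariate and leaving out each library, the last also for correlations, as chosen after seeing the data. The scripts were tested on simulated data.

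The members and gene lists were chosen with earlier results of these data known. Named genes were the members, fixed receptor and ligand genes, up to 4 called genes with the largest change from each list, and the 3 genes most like each member. The lists' other named genes, and those called in CD4+ TILs, were chosen after their values were seen. Libraries with the same number deviated together between all 3 WT TIL populations (r from 0.116 to 0.752 over 12 pairs). The test of CD45+ cells against T cells used these libraries without a term for that number. Its p-values and SE therefore leave this pairing out, and a replicate block was run as an alternative. Such deviations were also shared between CD4+ and CD8+ cells of WT TDLNs (0.432 to 0.836) and of Yap-cKO TILs (0.162 to 0.653). CD4+ and CD8+ cells were not compared with each other here. Results on 2 of the genes this rule names, or that were called, are not reported here.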

Additional observations from a re-analysis of the deposited data

Results flagged for a closer look

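Of the 84 combinations of a member and a group, 73 were screened for a library that stood apart from the other 3, and 8 held one by Dixon's criterion. The criterion's rate of about 1 in 20 by chance holds for normally distributed values, and CPM were screened here without logarithms. All 8 were the highest library of their group. The 8 of 73 can therefore not be set against that rate. The criterion looks at the gap to the nearest library as a share of the whole range.

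In CD45+ cells 1 library was flagged, replicate 4 of WT TILs for the G-CSF receptor gene Csf3r, at 344.4 CPM. That library also had the highest Cxcr2 and Mmp9 of its group.

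In T-cell TILs replicate 4 of Yap-cKO CD8+ TILs stood apart for Retnlg at 2.279 CPM, and replicate 1 for Mmp9 at 3.443 CPM. In T-cell TDLNs replicate 2 of Yap-cKO CD8+ cells stood apart for S100a8 at 0.3889 CPM (6 counts) and S100a9 at 0.2593 CPM (4 counts), the other 3 libraries having 0 of each. With 3 libraries at 0, any count in the remaining library meets the criterion. Cxcr2 stood apart at 5.279 CPM in replicate 4 of Yap-cKO CD4+ TDLNs and at 5.512 CPM in replicate 3 of WT CD8+ TDLNs. Il1b stood apart at 2.782 CPM in replicate 3 of Yap-cKO CD4+ TDLNs. No cause of these values was tested.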

How the results depend on the processing

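The count of members called in each comparison kept within 1.5 times its value in 16 of 19 comparisons without the count filter, in 17 of 19 by DESeq2 and in all 19 with library totals alone, average transcript length offsets or no fold threshold. In Yap-cKO against WT CD4+ TILs DESeq2 called 2 members (15% of all genes). Scaling on 12 leukocyte genes called 5 there (27.7% of all genes) and 4 in CD8+ TILs (49.4%). A Y-linked covariate called 1 in CD45+ TDLNs, Csf3r, beside 1.4% of all genes. With it 0.0141% of all genes were called in CD4+ TILs, 0.00708% in CD8+ TILs and 0.00734% in CD45+ TILs. Without a count filter 4 were called between tissues in Yap-cKO CD4+ cells (12.1% of all genes, either direction) and 4 in Yap-cKO CD8+ cells (10.3%). The CD8+ interaction called 1 without a filter (1.62% of all genes) and 1 by DESeq2 (4.81%), Mmp9 in both. Leaving out 1 library gave 3 to 5 members between tissues in WT CD4+ cells, 1 to 5 in WT CD8+ cells and 2 to 3 in Yap-cKO CD8+ cells, and 3 to 6 in WT and 2 to 6 in Yap-cKO TDLNs for CD45+ against T cells, the low counts coming with fewer members passing the filter. The counts of 7 and of 0, and the count of 2 in Yap-cKO CD4+ cells, did not move. In Yap-cKO against WT CD45+ TILs the Y-linked covariate gave -0.60 for Csf3r, -0.33 for Retnlg and 0.074 for Il1b, and leaving out 1 library gave -0.019 to 0.56 for Csf3r, -0.75 to 0.12 for Cxcr2, -0.25 to 0.67 for Retnlg and -0.29 to 0.13 for Il1b. The cause was not tested. With a replicate block the number of members called was within 1.5 times in all 19 comparisons, and 1 call was added, Mmp9 between tissues in Yap-cKO CD8+ cells (3.09, adjusted p = 0.0382). Between genotypes and between tissues no pair of groups had all 4 correlations of deviations above 0.1 (-0.373 to 0.262 between the genotypes in CD4+ TILs, for example). Between WT CD4+ TILs and WT CD4+ TDLNs 3 of 4 were above 0.1 (0.016 to 0.481). The labels do not say whether libraries with the same number came from the same mouse, and these correlations cannot decide it. S100a8, S100a9 and Retnlg had at most 6, 4 and 2 counts in any T-cell library of TDLNs.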
